A study of Drosophila melanogaster with 10 samples.

Results

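The genes described here are 10 glial marker genes of Drosophila melanogaster, out of 17676 genes in a count table from sorted type II neuroblasts (NB II). They were chosen by name, as genes known to mark glia or one of its subtypes, and all 10 were found in the table under their FlyBase symbols: repo, Eaat1, Eaat2, Gs2, moody, nrv2, alrm, wrapper, drpr and GLaz. Their levels were compared between 3 genotypes, library by library. The RNA came from brains of larvae labelled as 96 h old and raised at 25°, dissociated and sorted. The labels describe the sorted cells as GFP-positive NB II and descendants, whereas the methods describe a gate on forward scatter, side scatter and GFP intensity for NB II, so how many daughter cells were collected is not given. All genotypes carried mCD8::GFP under wor-GAL4, which is active in type I and type II neuroblasts, together with ase-GAL80, which blocks GAL4 in type I neuroblasts. Control NB II (3 libraries) carried no knockdown, Brat-depleted NB II (labelled brat-KD and named so here, 4 libraries) carried UAS-brat-IR, and the brat-KD Spt5-KD-labelled libraries (3 libraries) carried UAS-brat-IR and UAS-Spt5-IR. Knockdown and GFP thus shared 1 driver.

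Glia are the non-neuronal cells of the nervous system. In the fly brain they insulate neurons, take up and recycle transmitters, form the blood-brain barrier, engulf debris and carry lipids. NB II divide into intermediate neural progenitors (INPs), which give rise to neurons and also to glia, but a gate on cell size and GFP intensity can leave out small or dim daughter cells. The transcription factor Repo is expressed in nearly all glia of the central nervous system, whereas several of the other genes mark a subtype or are also used by neurons or progenitors. In bulk RNA, fewer glia in the sort and less glial RNA per cell cannot be told apart.

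The libraries held 2158058 to 9753111 counts. Values are given as CPM, counts per 1000000 counts of a library with TMM scaling (a correction for library composition), and 3 counts or fewer were taken as the limit of detection, which corresponds to 0.312 to 1.51 CPM in a library. Control replicate 1 and brat-KD Spt5-KD replicate 1 stood apart from the other libraries of their genotypes, with 8558 and 7544 detected genes against 9252 to 11617 in the other libraries. The brat transcript was at 880 to 1002 CPM in control NB II, 130 to 215 CPM in brat-KD NB II and 106 to 290 CPM in the brat-KD Spt5-KD-labelled libraries. Spt5 was at 182 to 227, 128 to 165 and 116 to 584 CPM, so the brat-KD Spt5-KD-labelled libraries did not lie below the other genotypes in their targeted transcript, and that genotype is named by its label only. The labels do not say whether replicates came from separate cultures or crosses, so that the p-values measure the spread between these libraries.

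Among the 10 markers, only Eaat2 passed the threshold (adjusted p under 0.05 over all genes tested, edgeR's quasi-likelihood test), and it was lower than in the controls in both genotypes that carry UAS-brat-IR. Of the 10 genes, 8 had enough counts to be tested for brat-KD against control NB II, and 1 fell and none rose in edgeR, at a background of 28.1% of all 8785 genes tested, while 2 lower and none higher had an unadjusted p under 0.05 or were called by DESeq2. For the brat-KD Spt5-KD-labelled libraries against brat-KD NB II, none of 7 passed (11.6% of 8750 genes). Of the 7, 2 had an unadjusted p under 0.05 (edgeR), both higher, while DESeq2 called 1, also higher. For the brat-KD Spt5-KD-labelled libraries against control NB II, 1 of 6 fell (7.29% of 8506 genes). The median log2 fold change of the tested markers was −0.41, −0.43 and −0.34 in these comparisons, and that of all genes −0.02, −0.05 and −0.01. The marker medians rest on few values, 2 positive and 6 negative, 3 and 4, and 2 and 4. Several of these have a standard error above 1, so the medians do not show a general decrease. The comparisons share libraries and are not independent of each other.

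**Figure D1:**
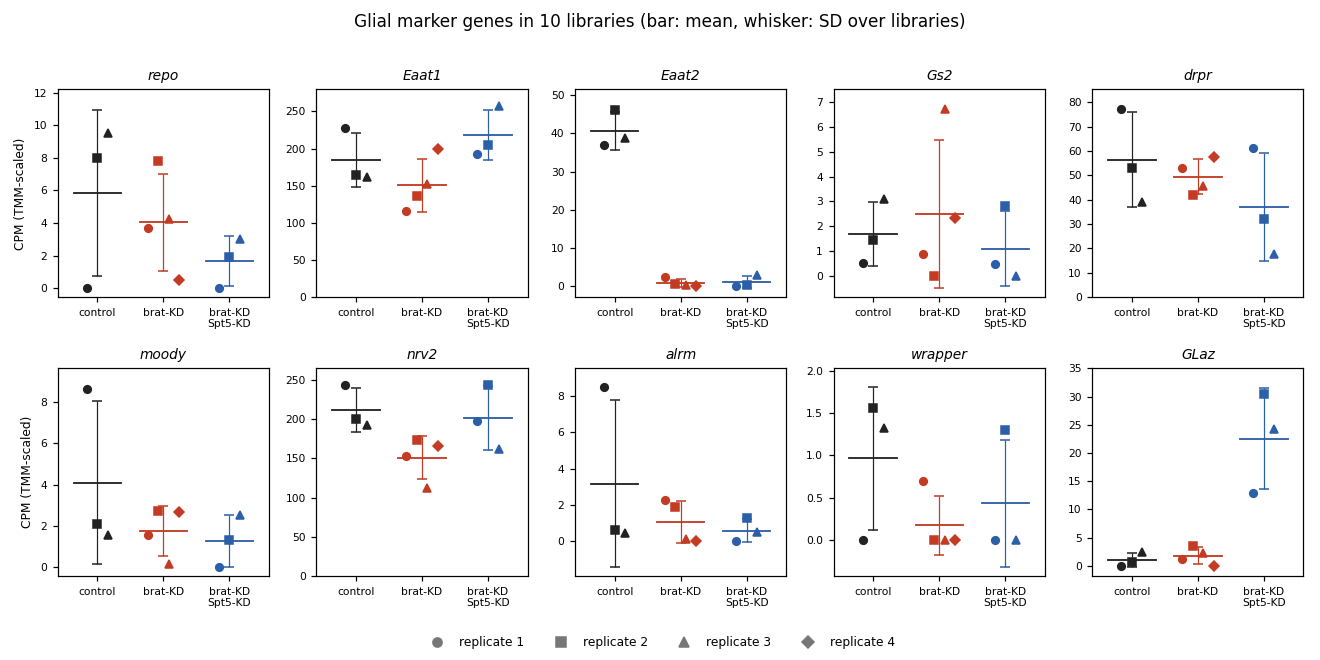
Level of each glial marker gene in CPM (vertical axis, a linear axis of its own for each gene) in every library of control NB II, brat-KD NB II and the brat-KD Spt5-KD-labelled libraries. Symbols are replicates, bars are means and whiskers are SDs over libraries. Eaat2 lies at 37.1 to 46.2 CPM in the controls and at 3.02 CPM or less in all other libraries, and GLaz at 12.9 to 30.5 CPM in the brat-KD Spt5-KD-labelled libraries and at 3.56 CPM or less elsewhere.

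The pan-glial gene repo (FBgn0011701; chromosome arm 3R, 18236192 to 18239602, plus strand, BDGP6) codes for the homeodomain factor that maintains glial fate. It had 0, 8.02 and 9.51 CPM in controls 1 to 3, 3.67, 7.80, 4.22 and 0.50 CPM in brat-KD replicates 1 to 4, and 0, 1.95 and 3.02 CPM in brat-KD Spt5-KD replicates 1 to 3. The 3 genotypes overlapped, and repo was at 0 in exactly the 2 libraries that stood apart, where the limit of detection was 0.530 CPM (control replicate 1) and 0.706 CPM (brat-KD Spt5-KD replicate 1). In total repo had 120 counts in the controls, 102 in brat-KD NB II and 15 in the brat-KD Spt5-KD-labelled libraries. Its log2 fold change was −0.52 (standard error, SE, 1.17, edgeR adjusted p = 0.79) in brat-KD against control NB II, with a 95% interval of −3.10 to 2.07. It was −1.34 (SE 1.33, edgeR adjusted p = 0.58) in the brat-KD Spt5-KD-labelled libraries against brat-KD NB II and −1.82 (SE 1.92, edgeR adjusted p = 0.68) against the control. With this spread between libraries a change of repo was not detectable. The gene shares 183 exon bases with CG7156 on the opposite strand, which had at least as many counts as repo in 10 of 10 libraries.

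Eaat1 (FBgn0026439; 2L, 9333567 to 9341925, plus strand), the glutamate transporter with which astrocyte-like and other glia clear glutamate, was one of the most abundant markers in all genotypes. It had 227, 164 and 162 CPM in controls 1 to 3. brat-KD replicates 1 to 4 had 116, 136, 152 and 199 CPM, and brat-KD Spt5-KD replicates 1 to 3 had 193, 205 and 257 CPM. The highest brat-KD library lay within the range of the controls, and the lowest brat-KD Spt5-KD library lay just below it. Eaat1 differed by a log2 fold change of −0.31 (SE 0.21, edgeR adjusted p = 0.30) between brat-KD and control NB II. Between the brat-KD Spt5-KD-labelled libraries and brat-KD NB II it differed by 0.51 (SE 0.22, edgeR adjusted p = 0.17), and without brat-KD Spt5-KD replicate 1 by 0.61 (edgeR adjusted p = 0.048, in a range of 0.048 to 0.36 among alternatives).

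Eaat2 (FBgn0026438; 2L, 737212 to 744395, minus strand), a transporter of aspartate and taurine that marks ensheathing glia, showed the largest difference of the set. Control replicates 1 to 3 had 37.1, 46.2 and 38.7 CPM, from 210, 444 and 175 counts. brat-KD replicates 1 to 4 had 2.44, 0.68, 0.40 and 0 CPM, from 14, 4, 3 and 0 counts, and brat-KD Spt5-KD replicates 1 to 3 had 0, 0.43 and 3.02 CPM, from 0, 2 and 6 counts. Every library of both genotypes with UAS-brat-IR thus lay below every control, including control replicate 1, in which repo was at 0. Against the control, libraries did not overlap for 38.8% of genes tested in brat-KD NB II and 34.1% in the brat-KD Spt5-KD-labelled libraries. The mean was 40.7 ± 4.89 CPM (SD, n = 3) in the controls and fell to 0.88 ± 1.08 CPM (SD, n = 4) in brat-KD NB II, a log2 fold change of −5.54 (SE 0.74, edgeR adjusted p = 3.4e-04). It passed the threshold in 13 of 13 alternatives, with an adjusted p of 7.0e-15 to 0.0097 (edgeR and DESeq2). Eaat2 in the brat-KD Spt5-KD-labelled libraries had 1.15 ± 1.64 CPM (SD, n = 3) and differed from the control by −5.36 (SE 1.23, edgeR adjusted p = 0.041). This call was lost without brat-KD Spt5-KD replicate 2 (edgeR adjusted p = 0.14) and without control replicates 1, 2 and 3 (0.11, 0.18 and 0.16), in a range of 7.1e-06 to 0.18, with the direction kept in all 13 alternatives. The gene overlaps no other annotated gene.

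Markers of other cell types moved in the same comparison as Eaat2, in which 28.1% of all genes tested passed the threshold. Of the neuronal markers, 11 of 12 tested fell in brat-KD against control NB II, and their summed level was 1356 to 1725 CPM in the controls, 259 to 352 CPM in brat-KD NB II and 256 to 408 CPM in the brat-KD Spt5-KD-labelled libraries. All 5 INP markers tested fell in brat-KD NB II, and of 8 neuroblast markers 7 rose and 1 fell. Of the hemocyte (blood cell) markers, 2 were tested in brat-KD against control NB II and 1 fell, Pxn, which codes for the matrix protein Peroxidasin. It had 32.3 to 88.9 CPM in the controls and 0 to 1.57 CPM in brat-KD NB II, and the whole list of 10 summed to 37.8 to 114 CPM and 20.7 to 25.8 CPM, with the defining hemocyte genes He, NimC1 and eater at 0 in every library. The part of these cell types in the level of Eaat2 was not tested.

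Gs2 (FBgn0001145; X, 11422832 to 11430197, plus strand), a glutamine synthetase that converts glutamate to glutamine, was near the limit of detection. It had 0.53, 1.46 and 3.10 CPM in controls 1 to 3, 0.87, 0, 6.73 and 2.32 CPM in brat-KD replicates 1 to 4, and 0.47, 2.81 and 0 CPM in brat-KD Spt5-KD replicates 1 to 3. The 3 genotypes overlapped. The log2 fold change was 0.57 (SE 1.28, edgeR adjusted p = 0.79) in brat-KD against control NB II and −1.09 (SE 1.58, edgeR adjusted p = 0.72) in the brat-KD Spt5-KD-labelled libraries against brat-KD NB II. Against the control these libraries had too few counts of Gs2 for a test. Gs2 has a paralog, Gs1, and how reads that fit both were counted is not given in the sources used here.

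The gene nrv2 (FBgn0015777; 2L, 6789770 to 6798862, minus strand) codes for a beta subunit of the sodium-potassium pump, which glia use to keep the ion balance and to seal septate junctions. It had 243, 200 and 192 CPM in controls 1 to 3 and 152, 173, 112 and 166 CPM in brat-KD replicates 1 to 4. The 2 genotypes did not overlap, as for 38.8% of the genes tested in this comparison. The log2 fold change was −0.51 (SE 0.18), and the edgeR adjusted p was 0.055. It passed with DESeq2 (adjusted p = 0.043), and in edgeR with no filter (adjusted p = 0.040) and with at least 10 counts in every library (adjusted p = 0.040), in a range of 0.040 to 0.14 over 14 alternatives. In brat-KD Spt5-KD replicates 1 to 3 nrv2 had 198, 243 and 161 CPM, which spanned levels of both other genotypes. It differed from brat-KD NB II by a log2 fold change of 0.40 (SE 0.22, edgeR adjusted p = 0.28) and from the control by −0.07 (SE 0.24, edgeR adjusted p = 0.92).

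The G protein-coupled receptor gene moody (FBgn0025631; X, 2044292 to 2050120, minus strand) acts in subperineurial glia, which seal the blood-brain barrier. It had 8.65, 2.08 and 1.55 CPM in controls 1 to 3, 1.57, 2.71, 0.13 and 2.66 CPM in brat-KD replicates 1 to 4 and 0, 1.30 and 2.52 CPM in brat-KD Spt5-KD replicates 1 to 3. The single highest value was in control replicate 1, which stood apart, and the other 2 controls lay within the range of brat-KD NB II. The log2 fold change in brat-KD against control NB II was −1.25 (SE 1.04, edgeR adjusted p = 0.42), and −0.05 without control replicate 1. In the brat-KD Spt5-KD-labelled libraries against brat-KD NB II it was −0.55 (SE 1.39, edgeR adjusted p = 0.85), and against the control it was not tested. The whole gene lies within the span of CG4313 on the opposite strand, which had at least as many counts in 10 of 10 libraries but shares 0 exon bases with moody.

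Counts of alrm and wrapper were few in most libraries. The leucine-rich repeat gene alrm (FBgn0039332; 3R, 25381065 to 25382781, minus strand), a marker of astrocyte-like glia, had 8.47, 0.62 and 0.44 CPM in controls 1 to 3. brat-KD replicates 1 to 4 had 2.27, 1.86, 0.13 and 0 CPM, and brat-KD Spt5-KD replicates 1 to 3 had 0, 1.30 and 0.50 CPM. As for moody, 1 value was high, in control replicate 1, and the gene lies within Fur1 on the same strand, which had at least as many counts in 10 of 10 libraries and shares 0 exon bases with it. The immunoglobulin-family gene wrapper (FBgn0025878; 2R, 22379637 to 22382675, plus strand), which marks cortex glia, had 0, 1.56 and 1.33 CPM in the controls. It had 0.70, 0, 0 and 0 CPM in brat-KD replicates 1 to 4 and 0, 1.30 and 0 CPM in brat-KD Spt5-KD replicates 1 to 3. Neither gene had enough counts for a test in any comparison, and a difference between genotypes could not be told from these counts. Those of alrm also differed within the controls, at 48, 6 and 2 counts in controls 1 to 3.

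The engulfment receptor gene drpr (FBgn0027594; 3L, 1715595 to 1731107, minus strand), through which glia take up debris of neurons, had 77.3, 53.2 and 38.9 CPM in controls 1 to 3. It had 52.9, 42.0, 45.5 and 57.6 CPM in brat-KD replicates 1 to 4, all within the range of the controls. In brat-KD Spt5-KD replicates 1 to 3 it had 61.2, 32.2 and 17.6 CPM, a range that held both the highest and the lowest value of these 7 libraries. The log2 fold change was −0.21 (SE 0.25, edgeR adjusted p = 0.59) in brat-KD against control NB II and −0.61 (SE 0.52, edgeR adjusted p = 0.58) in the brat-KD Spt5-KD-labelled libraries against the control. Against brat-KD NB II the latter differed by −0.43 (SE 0.40, edgeR adjusted p = 0.55), and without brat-KD Spt5-KD replicate 1 by −0.96 (edgeR adjusted p = 0.029, in a range of 0.029 to 0.88 among alternatives). The span of drpr overlaps 3 other genes, which all had fewer counts than drpr in every library, and shares exon bases with 1 of them, Oseg4.

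The lipocalin gene GLaz (FBgn0033799; 2R, 13163959 to 13168032, minus strand), whose product carries lipids and protects against oxidative stress, was high in the brat-KD Spt5-KD-labelled libraries. Replicates 1 to 3 of this genotype had 12.9, 30.5 and 24.2 CPM, from 55, 141 and 48 counts. brat-KD replicates 1 to 4 had 1.22, 3.56, 2.24 and 0 CPM, and control replicates 1 to 3 had 0, 0.62 and 2.43 CPM. The lowest brat-KD Spt5-KD library was thus above every other library, and brat-KD Spt5-KD replicate 1, which stood apart, was the lowest of its genotype. Against brat-KD NB II, where 29.4% of genes tested did not overlap, the mean was 22.5 ± 8.89 CPM (SD, n = 3) against 1.76 ± 1.51 CPM (SD, n = 4). The log2 fold change was 3.65 (SE 1.04), with a 95% interval that starts at 1.31 and an edgeR adjusted p of 0.053, which misses the threshold. It passed with DESeq2 (adjusted p = 0.0017), and in edgeR with total counts in place of TMM (adjusted p = 0.048), with no filter (0.043), without brat-KD Spt5-KD replicate 1 (0.0020) and without brat-KD replicate 4 (0.049), in a range of 0.0017 to 0.17 over 13 alternatives.

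Against control NB II, where 34.1% of genes tested did not overlap, GLaz differed by a log2 fold change of 4.49 (SE 1.37, edgeR adjusted p = 0.094). It passed with DESeq2 (adjusted p = 0.0019), in edgeR without brat-KD Spt5-KD replicate 1 (edgeR adjusted p = 0.034) and without both libraries that stood apart (4.24, edgeR adjusted p = 0.0056), in a range of 0.0019 to 0.33. Between brat-KD and control NB II, GLaz overlapped and differed by 0.82 (SE 1.43, edgeR adjusted p = 0.72). The gene overlaps no other annotated gene. Some hemocyte markers were also higher. Of 5 tested in the brat-KD Spt5-KD-labelled libraries, 2 rose against brat-KD NB II and the same number against the control. Of all genes tested, 11.6% and 7.29% passed in these comparisons. The genes that rose were Col4a1, which codes for a collagen IV chain, and Hml, which codes for Hemolectin. The other collagen IV gene, vkg, differed by 3.75 and 2.51 (edgeR adjusted p = 0.12 and 0.40). By an unadjusted p under 0.05, and with DESeq2, 3 of the 5 were higher against brat-KD NB II and none lower. Of all genes, 2299 of 8750 had such an unadjusted p (edgeR). The other tested markers included some with negative values, the engulfment receptor gene crq with −1.03 and −0.44 (edgeR adjusted p = 0.37 and 0.88), and Pxn against the control with −4.00 (SE 1.15, edgeR adjusted p = 0.081), which DESeq2 called lower. Col4a1 had 69.2 to 80.7 CPM in these libraries, 0 to 1.16 CPM in 3 brat-KD libraries and 1.22 CPM in the fourth, and 0 to 4.86 CPM in the controls. Hml had 68, 38 and 13 counts in brat-KD Spt5-KD replicates 1 to 3, 2 counts in brat-KD replicate 1 and 0 in the other libraries. The summed level of the 10 hemocyte markers was 94.3 to 130 CPM in the brat-KD Spt5-KD-labelled libraries, with He, NimC1 and eater at 0 in every library. The calls were lost in part without single libraries, that of Hml against brat-KD NB II without brat-KD replicates 2, 3 and 4 (edgeR adjusted p = 0.051 to 0.054), and that of Col4a1 against the control without brat-KD Spt5-KD replicates 2 and 3 and control replicates 2 and 3 (edgeR adjusted p = 0.073 to 0.15). The call of Hml against the control was lost without any of 5 libraries and kept without brat-KD Spt5-KD replicate 1. Summed fat body markers were at 0 to 56.4 CPM in the controls, 2.27 to 6.97 CPM in brat-KD NB II and 16.1 to 26.4 CPM in the brat-KD Spt5-KD-labelled libraries, and summed muscle markers at 5.31 to 16.6, 1.32 to 4.32 and 8.95 to 83.2 CPM. The part of these cell types in the level of GLaz was not tested.

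**Figure D2:**
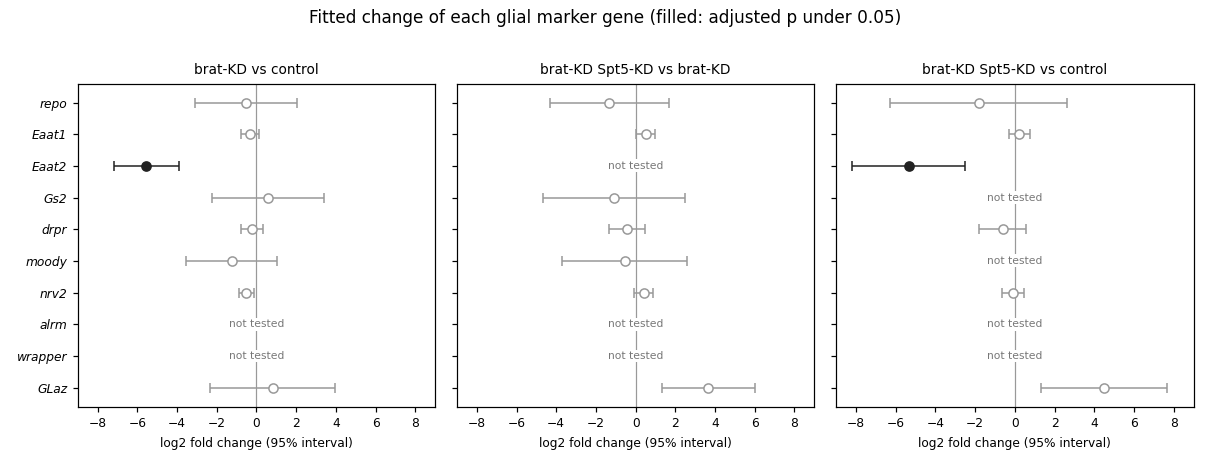
Fitted log2 fold change (horizontal axis) of each glial marker gene in the 3 comparisons, first genotype named against the second, with 95% intervals from edgeR. Filled points have an adjusted p under 0.05. These are Eaat2 at −5.54 in brat-KD against control NB II and at −5.36 in the brat-KD Spt5-KD-labelled libraries against the control, whereas the intervals of repo, Gs2 and moody span 0 wherever they were tested.

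**Figure D3:**
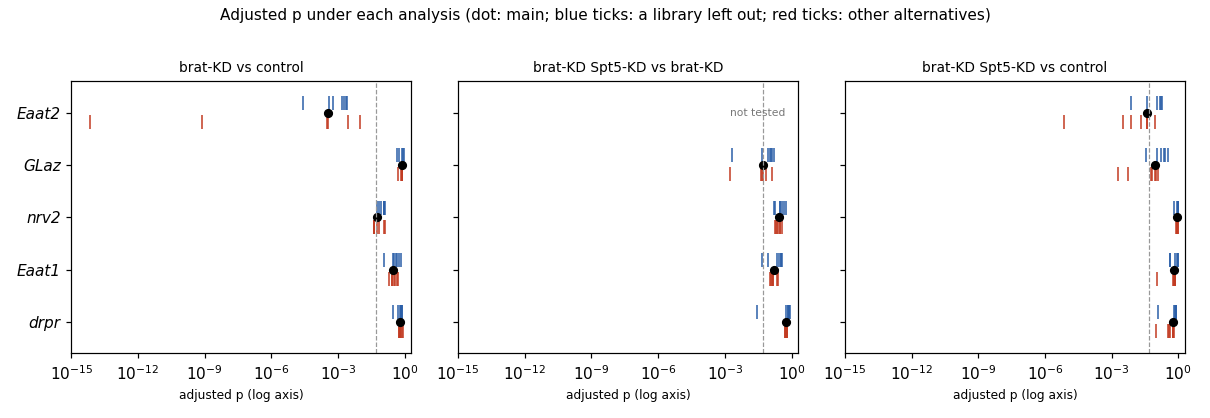
Adjusted p (horizontal log axis, dashed line at 0.05) of the 5 markers with the best measured differences, in the main analysis (dots), with 1 library left out (blue ticks) and under the other alternatives (red ticks, edgeR or DESeq2). Eaat2 stays below the line in brat-KD against control NB II, with a highest adjusted p of 0.0097, while GLaz lies on both sides of it in both comparisons of the brat-KD Spt5-KD-labelled libraries.

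Set per kilobase of annotated exon, so that genes can be compared, the markers spanned a wide range of levels. In control NB II the order of mean levels was nrv2 (59.3 CPM per kb), Eaat1 (58.8), drpr (11.9), Eaat2 (10.2), repo (1.95), alrm (1.85), moody (1.04), GLaz (0.84), Gs2 (0.76) and wrapper (0.49). The ranges over libraries of nrv2 and Eaat1 overlapped, as did those of drpr and Eaat2 and those of all neighbours from repo down, but those of Eaat1 and drpr and of Eaat2 and repo did not. In brat-KD NB II Eaat2 ranked above wrapper alone, at 0.22 CPM per kb. In the brat-KD Spt5-KD-labelled libraries GLaz (18.6 CPM per kb) ranked between nrv2 (56.3) and drpr (7.78). Its range over libraries overlapped that of drpr but not that of nrv2. The summed CPM of the 10 markers, 450 to 602 in control NB II, 323 to 428 in brat-KD NB II and 466 to 520 in the brat-KD Spt5-KD-labelled libraries, rests mostly on Eaat1, nrv2 and drpr.

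As a description of how repo varied, its log2 CPM over the 10 libraries was correlated with that of 9089 genes, which share library depth and composition. The highest Pearson's r were those of shams (0.96), Cep290 (0.95), Dnali1 (0.95), kar (0.94) and CG15912 (0.93). Like repo, Cep290, Dnali1, kar and CG15912 were at 0 CPM in both libraries that stood apart. In brat-KD replicate 4 they were, as was repo, at 0.50 CPM or less. Among the other markers r ran from −0.55 for Eaat1 to 0.52 for wrapper, and repo itself was at or under the limit of detection in 3 of the 10 libraries.

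Genes of glial fate and growth factor signalling moved in both directions. The edgeR calls of this list and of those that follow are to be read against all genes tested. The shares called, given above, were 28.1%, 11.6% and 7.29% in the 3 comparisons. Counts by an unadjusted p under 0.05 have a higher background, 3451 of 8785, 2299 of 8750 and 1890 of 8506 genes. With DESeq2 more genes passed than with edgeR in the comparisons of the brat-KD Spt5-KD-labelled libraries, as given in the last section. Of 8 tested in brat-KD against control NB II, 3 rose and 2 fell, and the list's median log2 fold change was 0.35. gcm, which codes for the factor that starts glial fate in the embryo, had 27.0, 29.9 and 24.1 CPM in controls 1 to 3 and 2.90 to 8.97 CPM in brat-KD NB II, a log2 fold change of −2.14 (SE 0.43, edgeR adjusted p = 0.0037). It was lost in the fit of all genotypes (edgeR adjusted p = 0.16, in a range of 2.1e-05 to 0.16). For brat-KD Spt5-KD replicates 1 to 3 the values of gcm were 0, 6.71 and 5.04 CPM. pnt, which codes for an ETS factor used by glia and by NB II, rose from 53.4 to 83.3 CPM in the controls to 313 to 447 CPM in brat-KD NB II, a log2 fold change of 2.44 (SE 0.21, edgeR adjusted p = 3.4e-05). The FGF gene pyr rose by 1.64 in the same comparison (SE 0.26, edgeR adjusted p = 0.0010).

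In the brat-KD Spt5-KD-labelled libraries, 2 of 7 genes of this list fell against brat-KD NB II and none rose, with edgeR, DESeq2 and an unadjusted p under 0.05 alike, and the list's median log2 fold change was −0.39. pnt was at 147 to 234 CPM, a log2 fold change of −0.99 (SE 0.22, edgeR adjusted p = 0.024), which was lost without brat-KD Spt5-KD replicate 3 and without brat-KD replicates 1, 3 and 4 (edgeR adjusted p = 0.056 to 0.077). The other FGF gene, ths, had 0 counts in all 3 of these libraries and 3.22 to 14.6 CPM in brat-KD NB II (edgeR adjusted p = 0.025). It overlaps 3 other genes, and its call was lost without brat-KD Spt5-KD replicate 2 and without any of the 4 brat-KD libraries (edgeR adjusted p = 0.053 to 0.073). Against control NB II, 1 of 7 rose, pnt (1.49, SE 0.30, edgeR adjusted p = 0.028), and 1 fell, ths, which had 7.77 to 14.8 CPM in the controls (edgeR adjusted p = 0.035). Both calls were lost without any 1 of 5 libraries (edgeR adjusted p = 0.055 to 0.19) and kept without brat-KD Spt5-KD replicate 1.

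Genes of transmitter clearance and recycling, the group to which Eaat1, Eaat2 and Gs2 belong, gave calls in both directions. Of 5 tested in brat-KD against control NB II, 1 rose and 1 fell, and the list's median log2 fold change was −0.24. In the brat-KD Spt5-KD-labelled libraries 2 of 6 rose against either other genotype in edgeR. By an unadjusted p under 0.05, 1 of the 6 was also lower against brat-KD NB II and 3 against the control. DESeq2 called 2 of the 6 lower against the control. Gs1, the paralog of Gs2, had 9.71, 30.5 and 28.3 CPM in the controls and 0 to 4.89 CPM in brat-KD NB II, a log2 fold change of −3.02 (SE 0.90, edgeR adjusted p = 0.028). Its libraries did not overlap, as for 38.8% of genes tested. The call was kept in 6 of 13 alternatives (edgeR and DESeq2 adjusted p = 8.8e-04 to 0.16). It was lost without control replicates 2 and 3 and without brat-KD replicates 1, 2 and 4. Gdh, which codes for glutamate dehydrogenase, had 84.2 to 116 CPM in control NB II, 392 to 596 CPM in brat-KD NB II and 1266 to 1409 CPM in the brat-KD Spt5-KD-labelled libraries. Its log2 fold change was 2.28 (SE 0.19, edgeR adjusted p = 2.1e-05) in the first comparison and 1.40 (SE 0.18, edgeR adjusted p = 0.0039) in the brat-KD Spt5-KD-labelled libraries against brat-KD NB II. The gene e (ebony), which codes for the beta-alanyl amine synthase that glia use to inactivate dopamine and histamine, had 30.8, 77.2 and 44.4 CPM in brat-KD Spt5-KD replicates 1 to 3. It had 0 to 1.85 CPM in brat-KD NB II and 0 to 0.31 CPM in the controls. The log2 fold change of e against brat-KD NB II was 5.36 (SE 0.86, edgeR adjusted p = 0.0072), and it overlaps no other gene. Like GLaz, e was thus higher in every library labelled brat-KD Spt5-KD than in any other library. Libraries did not overlap for 29.4% of genes tested against brat-KD NB II and 34.1% against the control. The gene e is also used in the cuticle. The hemocyte, fat body and muscle markers are given beside GLaz, and their part in the level of e was not tested.

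**Figure D4:**
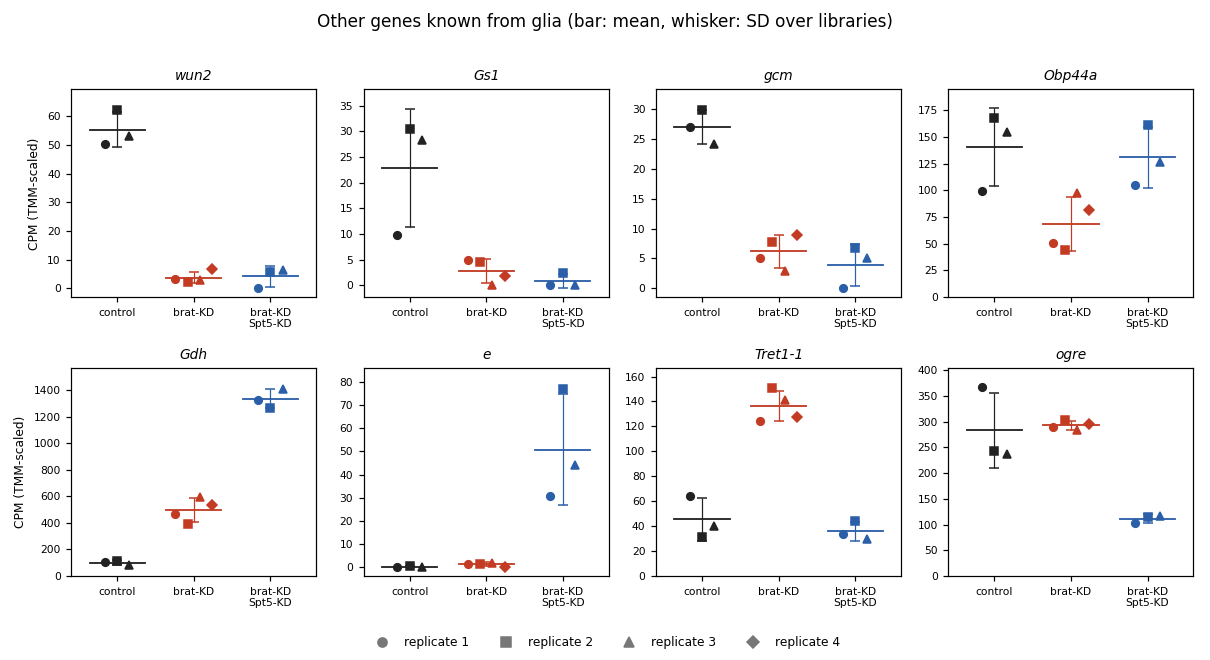
Level in CPM (vertical axis, linear, its own for each gene) of 8 further genes known from glia in every library of the 3 genotypes. Symbols are replicates, bars are means and whiskers are SDs over libraries. wun2, Gs1 and gcm are highest in the controls, Gdh and e in the brat-KD Spt5-KD-labelled libraries, and Tret1-1 in brat-KD NB II (125 to 151 CPM).

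Other genes known from glial subtypes gave 1 higher and 2 lower of 8 tested in brat-KD against control NB II (28.1% of all genes), and the list's median log2 fold change was −0.11. wun2, which codes for a lipid phosphate phosphatase found in astrocyte-like glia, had 50.5, 62.4 and 53.3 CPM in the controls and at most 6.64 CPM in brat-KD NB II, a log2 fold change of −3.90 (SE 0.38, edgeR adjusted p = 4.8e-05). brat-KD Spt5-KD replicates 1 to 3 had 0, 5.84 and 6.55 CPM of wun2 (against the control −3.76, SE 1.13, edgeR adjusted p = 0.091). As for Eaat2, no library of either genotype with UAS-brat-IR reached the lowest control. The shares of all genes tested without overlap were 38.8% for brat-KD NB II and 34.1% for the brat-KD Spt5-KD-labelled libraries. Obp44a, an odorant-binding protein gene expressed in glia, differed by −1.04 (SE 0.28, edgeR adjusted p = 0.017) between brat-KD and control NB II, and the call was lost without brat-KD replicate 1 and without control replicates 2 and 3 (edgeR adjusted p = 0.059 to 0.076). Tret1-1, the trehalose transporter gene of perineurial glia, rose by 1.57 (SE 0.25, edgeR adjusted p = 9.7e-04) in this comparison.

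In the brat-KD Spt5-KD-labelled libraries, 1 of 11 subtype genes rose against brat-KD NB II and 2 fell in edgeR. The list's median log2 fold change was 0.65. By an unadjusted p under 0.05, and with DESeq2, 3 of the 11 were higher and 2 lower. The one that rose in edgeR was e. Tret1-1 was at 29.7 to 44.1 CPM, a log2 fold change of −1.93 (SE 0.22, edgeR adjusted p = 0.0024). ogre, the gap junction gene of barrier glia that is also expressed in neuroblasts, had 102 to 117 CPM against 283 to 303 CPM in brat-KD NB II, a log2 fold change of −1.41 (SE 0.15, edgeR adjusted p = 0.0024). Of 8 neuroblast markers 4 fell in the same comparison, with summed levels of 3596 to 4131 CPM in brat-KD NB II and 1766 to 2272 CPM in the brat-KD Spt5-KD-labelled libraries, and their part in the level of ogre was not tested. Against the control 1 of 9 subtype genes rose, e (edgeR adjusted p = 0.0063), and 1 fell, ogre (−1.35, SE 0.25, edgeR adjusted p = 0.023). The call of ogre was lost without brat-KD Spt5-KD replicates 2 and 3 and control replicates 2 and 3 (edgeR adjusted p = 0.065 to 0.084). By an unadjusted p under 0.05, and with DESeq2, 2 of the 9 were higher and 3 lower.

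Genes of the blood-brain barrier and septate junctions, to which moody belongs by function, gave 4 lower and none higher of 13 tested in edgeR in brat-KD against control NB II, a share near the 28.1% of all genes, and the list's median log2 fold change was −0.37. An unadjusted p under 0.05 gave 5 lower and DESeq2 4, with none higher in either. The smallest adjusted p were those of Nrx-IV (−1.04, SE 0.15, edgeR adjusted p = 5.1e-04), Lac (−0.98, SE 0.17, edgeR adjusted p = 0.0019) and kune (−1.42, SE 0.39, edgeR adjusted p = 0.018), which code for septate junction proteins of several tissues. The call of kune was lost without brat-KD replicate 2 (edgeR adjusted p = 0.0504) and in the fit of all genotypes (edgeR adjusted p = 0.087), in a range of 0.0045 to 0.087. Only Lac passed in the brat-KD Spt5-KD-labelled libraries against brat-KD NB II, at 1.16 (SE 0.22, edgeR adjusted p = 0.013), and not without brat-KD replicate 1 (edgeR adjusted p = 0.051). None of 13 passed against the control in edgeR, where 2 had an unadjusted p under 0.05, and DESeq2 called 1 gene lower.

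Genes that act with drpr in engulfment gave 3 lower and none higher of 10 in edgeR in brat-KD against control NB II, a share near the 28.1% of all genes, and the list's median log2 fold change was 0.11. By an unadjusted p under 0.05, and with DESeq2, 2 of the 10 were higher and 3 lower. The 3 called lower in edgeR were Ced-12, which codes for a regulator of the actin GTPase Rac, the adaptor gene Crk and the GTPase gene Rac2. The call of Crk was lost without control replicates 2 and 3 (edgeR adjusted p = 0.069 and 0.065), and that of Rac2 was kept in 3 of 14 alternatives. Ced-12 had 22.3 to 63.4 CPM in the controls, 8.05 to 12.2 CPM in brat-KD NB II and 22.3 to 53.7 CPM in the brat-KD Spt5-KD-labelled libraries. Its log2 fold change was −2.11 (SE 0.37, edgeR adjusted p = 0.0018) in the first comparison. Against brat-KD NB II it was 1.91 (SE 0.43, edgeR adjusted p = 0.023) in the brat-KD Spt5-KD-labelled libraries, lost without brat-KD Spt5-KD replicate 3 and without any of the 4 brat-KD libraries (edgeR adjusted p = 0.058 to 0.077). The kinase gene Src42A fell in that comparison by 0.79 on the log2 scale (SE 0.22, edgeR adjusted p = 0.0497), and this call was kept in 5 of 14 alternatives. None of 10 passed against the control in edgeR, where 2 had an unadjusted p under 0.05, and DESeq2 called 1 of 10 lower.

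Genes of lipocalins, lipid carriage and lipid droplets, the group of GLaz, gave 3 higher and 1 lower of 6 in brat-KD against control NB II, and the list's median log2 fold change was 0.62. The lipophorin receptor gene LpR2 rose by 1.42 (SE 0.30, edgeR adjusted p = 0.0049, and 0.16 in the fit of all genotypes, where the call was lost) and the lipid droplet gene Lsd-2 by 1.05 (SE 0.24, edgeR adjusted p = 0.0086). In the brat-KD Spt5-KD-labelled libraries against brat-KD NB II, 1 of 7 fell and none rose in edgeR, while 1 higher and 2 lower had an unadjusted p under 0.05 and DESeq2 called 2 lower. The one called in edgeR was LpR2, from 38.0 to 3.47 CPM in the mean, a log2 fold change of −3.48 (SE 0.74, edgeR adjusted p = 0.020), which was lost without brat-KD replicates 1, 2 and 3 (edgeR adjusted p = 0.060 to 0.075). None of 7 passed against the control in edgeR, where 1 had an unadjusted p under 0.05, and DESeq2 called 1 gene higher. Of named list genes with counts, pnt, gcm, ths, Gdh, Gs1, Tret1-1, ogre, Obp44a, Nrx-IV, Ced-12, Rac2, LpR2, Pxn and crq overlap another annotated gene. Their counts may hold reads of that gene.

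**Figure D5:**
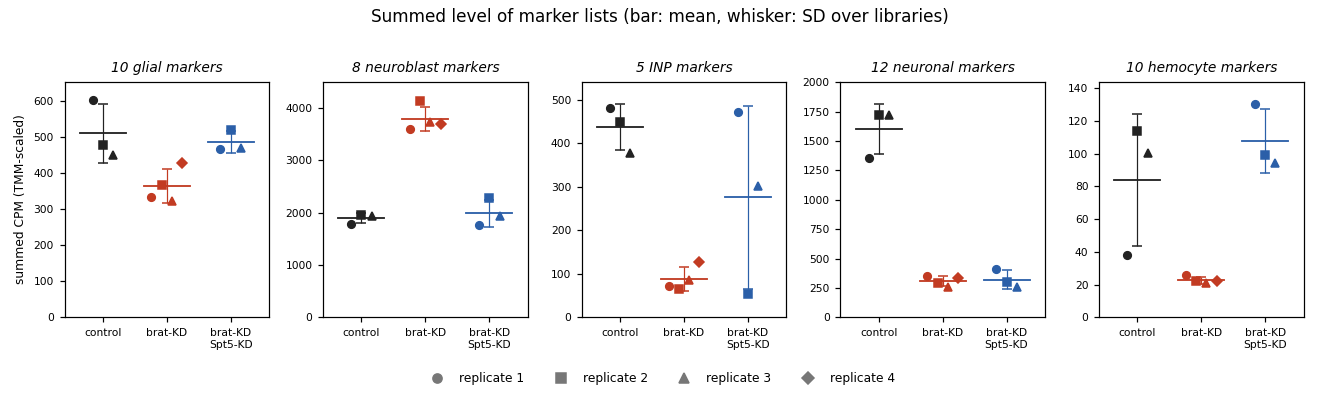
Summed CPM (vertical axis, linear, its own for each panel) of the 10 glial markers and of neuroblast, INP, neuronal and hemocyte marker lists in every library of the 3 genotypes. Symbols are replicates, bars are means and whiskers are SDs over libraries. The glial sum is 323 to 428 in brat-KD NB II and 450 to 602 in the controls, while the neuronal sum lies at 408 or less in all libraries but the controls, which have 1356 or more.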

How the data were processed

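The authors isolated polyadenylated RNA from cells sorted by scatter and GFP, made directional libraries with 17 or 24 PCR cycles (which library had which is not stated) and mapped reads to BDGP6 (dm6) with bowtie2. They deposited raw read counts per gene for the 10 libraries. The submitters' processing notes name FastQC and edgeR 3.26.8. The counting program, its annotation and its use of strand are not given in the sources used here, and the stated larval age differs between the labels and the methods. Every column of the table belongs to 1 of the 10 libraries.

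Here the counts were analysed with edgeR 4.0.16 in R 4.3.3. Each pair of genotypes was fitted alone with TMM scaling, filterByExpr and the quasi-likelihood test, and p-values were adjusted over all genes tested (Benjamini-Hochberg, threshold 0.05). CPM used TMM factors over the 10 libraries. Coordinates and overlaps came from the Ensembl annotation (BDGP6.54, release 115), which held 17549 of the 17676 genes. Limits of detection (3 counts) cover counting error only, since PCR copies are not independent molecules. The procedure was tested on simulated data. Alternatives were DESeq2 1.42.0, its size factors, total counts, a minimum of 10 counts per library or none, 1 joint fit of the genotypes, a block for the replicate number, and fits that leave out a library. All 10 markers are described, and of the other lists the 3 genes with the smallest adjusted p in each comparison could be named. He, NimC1, eater, Spt5, brat, crq (chosen after its values were seen) and the genes that overlap a marker are named as checks. The markers and lists were chosen with earlier results of these data known.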

Additional observations from a re-analysis of the deposited data

Results flagged for a closer look

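In the group of 4 brat-KD libraries, the level of each marker and the summed level of each marker list were checked for a library far from the others (the gap to its neighbour over the whole range, against Dixon's critical value at a level of 95%). Of 24 such groups 2 were past it, and for normally distributed values chance gives about 1 in 20. wrapper had 0.698 CPM in brat-KD replicate 1 and 0 in the other 3 libraries, a difference of a few counts. With 3 values at 0 any count in the remaining library gives this flag, so it carries no information on wrapper. The summed level of the fat body markers was 6.97 CPM in brat-KD replicate 4, with a gap of 0.834 of the range.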

How the results depend on the processing

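Over 274 alternative values of the 21 tested log2 fold changes of the markers, 250 kept their direction and their side of the threshold, 13 passed it where the main value had not, 5 no longer passed and 6 turned in direction. In brat-KD against control NB II the number of markers changed was 2 with DESeq2 and with no filter. In the brat-KD Spt5-KD-labelled libraries against brat-KD NB II it was 1 with DESeq2, with total counts and with no filter, and 0 to 3 with 1 library left out. Against the control it was 2 with DESeq2 and without both libraries that stood apart (an alternative chosen after seeing the data), 0 with at least 10 counts in every library, a filter that removes Eaat2, and 0 to 2 with 1 library left out. With 1 library left out, the log2 fold change ran from −1.10 to 0.0071 for repo and from −0.40 to 0.11 for drpr in brat-KD against control NB II. It ran from −1.40 to 0.073 for moody in the brat-KD Spt5-KD-labelled libraries against brat-KD NB II, and from −0.26 to 0.0065 for nrv2 against the control. The causes were not tested. Over all genes, the count of 2467 changed genes was 1250 in the fit of all genotypes. The count of 1017 was 1648 with DESeq2 and 334 (without brat-KD replicate 1) to 2408 (without brat-KD Spt5-KD replicate 1) with 1 library left out. The count of 620 was 1347 with DESeq2, 1450 in the fit of all genotypes, 2513 without both libraries that stood apart, and 64 (without control replicate 2) to 1504 (without brat-KD Spt5-KD replicate 1) with 1 library left out.

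Deviations from the genotype means correlated by −0.02 to 0.15 between libraries of the same replicate number (median 0.047). Between libraries of different numbers they correlated by −0.16 to 0.14 (median −0.008). The ranges overlapped, so a pairing by replicate number was neither shown nor excluded. With a replicate block, 1, 0 and 0 markers changed in the 3 comparisons, and 1735, 1 and 232 of all genes. Eaat2 in the brat-KD Spt5-KD-labelled libraries against the control then had a log2 fold change of −6.04 (edgeR adjusted p = 0.089), and in brat-KD against control NB II repo had 0.69 and Gs2 −0.37. For genes named from the other glial lists and the hemocyte list, changes called in the main analysis were recomputed under these alternatives. This was done after the data were seen, and none of these called changes turned in direction. Named changes that were not called, such as those of vkg and crq, were not recomputed in this way, apart from the DESeq2 calls counted over each list. Without the library or libraries that stood apart, counts over lists moved in the brat-KD Spt5-KD-labelled libraries, among them those of the neuronal and neuroblast markers (0 higher and 10 lower of 12, 4 higher and 1 lower of 8), glial fate genes (2 higher and 3 lower of 8), transmitter genes (3 higher and 2 lower of 6) and engulfment genes (0 higher and 3 lower of 10) against the control, and those of the lipid genes (2 higher and 2 lower of 7) and glial markers (2 higher and 1 lower of 8) against brat-KD NB II. Calls over all genes moved as well. Against the control 1182 were then higher and 1331 lower of 8807 tested. Against brat-KD NB II 1247 were higher and 1161 lower of 9158. In the main analysis 5 of 12 neuronal markers were lower against the control, and none of 8 neuroblast markers passed. Counts near 0 in repo, Gs2, moody, alrm and wrapper limit what these libraries can show for them.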
